A study of Triticum aestivum with 4 samples.

Results

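In wheat roots, 10 of the 147297 assembled transcripts named a DELLA protein, and 8 of these met the rule given below and were tested. After hypergravity 3 of the 8 fell, 1 rose and 4 were not called. Over all transcripts tested, 11.9% were called lower and 13.5% higher. The count of 3 was 1 without 1 of the hypergravity libraries. The RNA came from roots of 45-day-old bread wheat of genotype UAS-375. In the hypergravity group, the seed was exposed to 10 g over 12 h and sown afterwards, and in the control group the seed was left untreated. Both groups then grew in greenhouse pipes, and each was sequenced as 2 libraries, called a and b here because nothing ties them to a replicate number. The labels leave unsaid whether libraries within a group stem from different plants, so every p-value here measures only the spread between these libraries, which may be technical.

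DELLA proteins are nuclear repressors of growth and belong to the GRAS family of transcriptional regulators. Gibberellin, a growth hormone, binds the receptor GID1, the receptor then binds the N-terminal part of a DELLA protein, and an F-box protein, GID2 in rice and SLEEPY1 in Arabidopsis, marks the DELLA protein for the proteasome. RHT-1 is the wheat DELLA protein, whose gibberellin-insensitive alleles gave the semi-dwarf wheats, SLN1 (SLENDER1) is its barley counterpart, and RGL1 is a DELLA protein of Arabidopsis. Because the protein is controlled by breakdown, a transcript level does not give the protein level.

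Members were the rows whose deposited values had over 2 decimals in both columns, whose best protein hit lay in Aegilops, Triticum, Hordeum or Brachypodium, and whose text held "DELLA protein". The description of the hit matched in 7 rows. In the eighth, TRINITY_DN518_c0_g1_i14, the hit was scarecrow-like protein 4, a GRAS protein, and the match came from the Pfam domain, the DELLA N-terminal domain. Both hits labelled RHT-1 were in Aegilops tauschii, as were the RGL1-like and SLN1-like hits, and the hit labelled SLN1 was in Brachypodium distachyon. The 8 transcripts fell into 5 assembled genes. A Pfam domain was given for 5 of the 8, with lengths between 991 and 2554 bases. None was given for the 3 SLN1-like transcripts, with lengths between 536 and 775 bases. In the RHT-1, RGL1-like and SLN1 transcripts the domain was GRAS, which scarecrow-like transcripts carried too. Only TRINITY_DN518_c0_g1_i14 had the DELLA N-terminal domain. The members' names therefore rest on the best hit. Of the 5 protein accessions 0 matched the wheat RefSeq gene table, so no genome position is given.

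Recovered counts per library totalled 46604327 and 47850533 in hypergravity and 49424285 and 53346750 in control. Root markers (20 transcripts found by names such as nitrate transporter 2 or Casparian strip protein) took 222 and 191 CPM (of recovered counts) in hypergravity and 197 and 223 in control. Photosynthesis transcripts, markers of green tissue, numbered only 3. They took 2.92 and 2.15 CPM in hypergravity and 2.21 and 1.35 in control, near 0 in all 4 libraries. The tissue was bulk root, so fewer cells of a type and less RNA per cell cannot be told apart.

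Levels below are recovered counts divided by a size factor (normalized counts). A change is the log2 fold change of hypergravity against control ± SE, and a transcript was called at a Benjamini-Hochberg adjusted p under 0.05 from limma over all 91482 transcripts with values per library. Among the 59378 with hits in the same 4 genera, 13.2% were called higher and 13% lower. Against these shares stand 1 of 8 DELLA transcripts called higher, which is near the background, and 3 of 8 called lower. The count of 3 rests on single libraries, with 1 called lower without hypergravity b, 5 without hypergravity a and 2 without control b, while the count of 1 higher held with each library left out in turn. The median log2 fold change was -0.60 over the DELLA transcripts and -0.02 over all transcripts with hits in those genera. The groups did not overlap in 4 members that were lower and 1 that was higher in hypergravity, against shares of 33.8% lower and 31.5% higher in the same genera, and 32% lower and 31.9% higher among all tested transcripts.

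**Figure D1:**
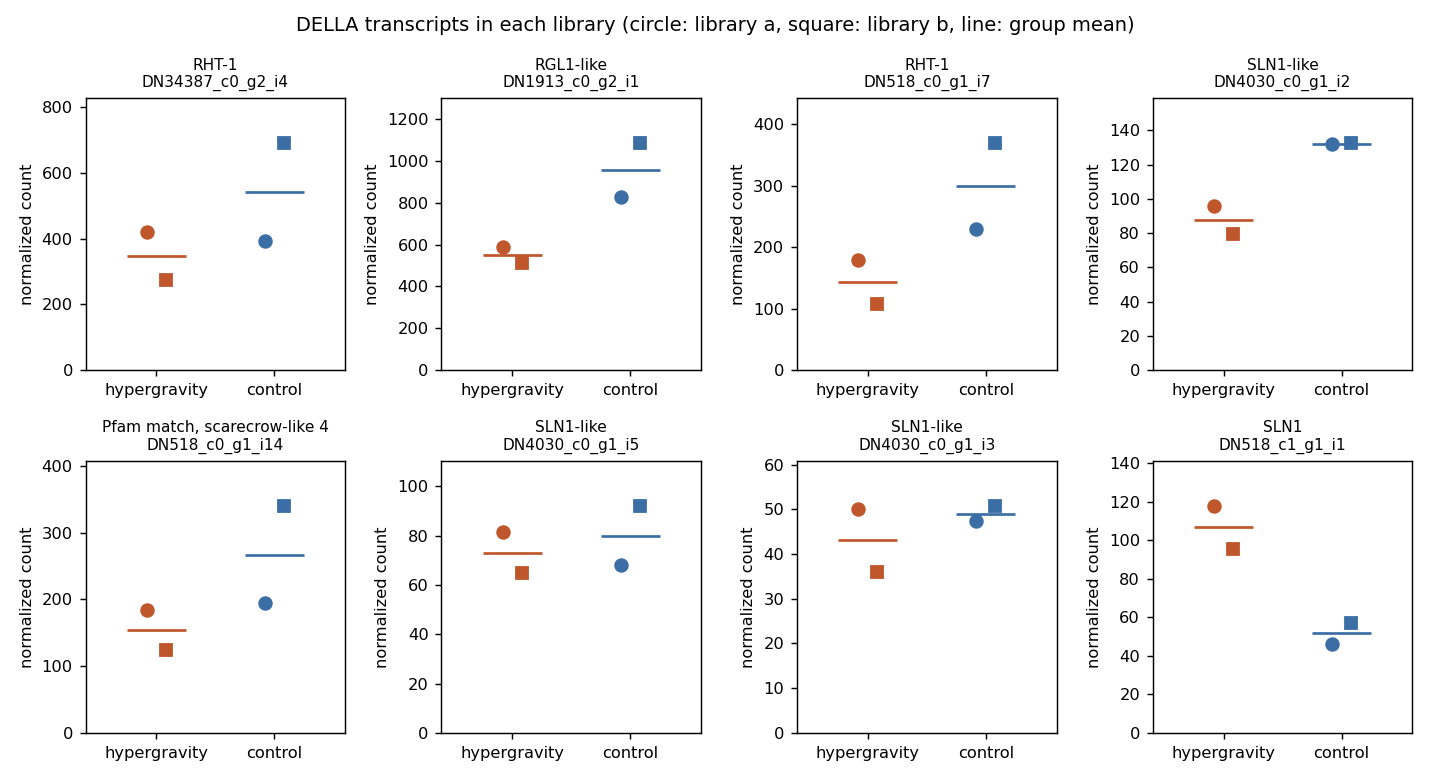
Normalized count (y axis, from 0) of each of the 8 DELLA transcripts in the 2 hypergravity and the 2 control libraries; circles are library a, squares library b and lines group means. SLN1 lay higher in both hypergravity libraries (117.8 and 95.8 in hypergravity against 46.3 and 57.3 in control), while the RGL1-like transcript lay lower (587 and 509.7 in hypergravity against 826 and 1083 in control).

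The transcript with the largest counts was the RGL1-like transcript (TRINITY_DN1913_c0_g2_i1), which carried a GRAS domain and was 2554 bases long. It had 587 and 509.7 normalized counts in hypergravity, against 826 and 1083 in control. Both hypergravity libraries lay below both control libraries, with means of 548 ± 54.7 in hypergravity and 955 ± 182 in control (SD, n = 2 each). It fell by 0.79 on the log2 scale (-0.79 ± 0.14, limma adjusted p = 0.00237). The call held in all 10 alternative fits, some of which left 1 library in a group, with log2 fold changes between -0.98 and -0.59.

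DELLA protein RHT-1 was represented by 2 transcripts in different assembled genes, both with a GRAS domain and both short, at 991 and 1043 bases. The longer (TRINITY_DN518_c0_g1_i7) had 179 and 108 normalized counts in hypergravity, against 230 and 369 in control. Its groups did not overlap, and it fell by 1.06 on the log2 scale (-1.06 ± 0.26, limma adjusted p = 0.0154). The shorter (TRINITY_DN34387_c0_g2_i4) had 421 and 276 normalized counts in hypergravity, against 394 and 690.5 in control. Here the groups overlapped, since hypergravity a lay above control a, and the difference was not called (log2 fold change -0.61 ± 0.25, 95% interval -1.17 to -0.05, limma adjusted p = 0.105). Summed over both transcripts, RHT-1 stood at 492 ± 153 in hypergravity and 842 ± 308 in control (SD, n = 2 each), and these groups also stood close: the higher hypergravity library had 601 and the lower control library 624. The longer transcript was called in 8 of 10 alternative fits and the shorter in 2, among them fits that left 1 library in a group. Without hypergravity b the longer transcript was no longer called, with a log2 fold change of -0.70. The same held without the mean-variance trend (limma adjusted p = 0.0865). The log2 fold change of the shorter one was -0.92 without hypergravity a and -1.02 without control a. It was -0.31 without hypergravity b and -0.21 without control b. Each of these fits leaves 1 library in a group, so only the size of the change is given.

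DELLA protein SLN1 was the member that rose. Its transcript (TRINITY_DN518_c1_g1_i1, 1158 bases, GRAS domain, hit in Brachypodium distachyon) had 117.8 and 95.8 normalized counts in hypergravity, against 46.3 and 57.3 in control. Both hypergravity libraries lay above both control libraries, and it rose by 1.03 ± 0.22 on the log2 scale (limma adjusted p = 0.00763), with means of 107 ± 15.6 in hypergravity and 51.8 ± 7.75 in control (SD, n = 2 each). The recovered counts behind these values were 113 and 93 in hypergravity and 47 and 61 in control. An assembled gene whose identifier shares the DN518 prefix, TRINITY_DN518_c0_g1, holds the longer RHT-1 transcript, which fell. Whether reads are shared between them was not tested. The call held in all 10 alternative fits, some of which left 1 library in a group, with log2 fold changes between 0.88 and 1.18.

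The 3 SLN1-like transcripts were isoforms of 1 assembled gene (TRINITY_DN4030_c0_g1) and shared 1 best hit. Isoform i2 had 95.9 and 79.3 normalized counts in hypergravity, against 132.1 and 132.5 in control. It fell by 0.60 on the log2 scale (-0.60 ± 0.19, limma adjusted p = 0.0425), with groups that did not overlap. However, it was not called without hypergravity b, control a or control b, with log2 fold changes of -0.46, -0.60 and -0.59. Isoform i5 had 81.3 and 64.9 in hypergravity, against 68.0 and 92.1 in control, and its groups overlapped. Isoform i3 had 50.05 and 36.0 in hypergravity, against 47.3 and 50.7 in control, also overlapping. The 95% intervals of their log2 fold changes, -0.64 to 0.40 for i5 and -0.76 to 0.36 for i3, held 0. Summed over the isoforms the gene had 227 and 180 normalized counts in hypergravity and 247 and 275 in control, and it was not called (log2 fold change -0.37 ± 0.17, limma adjusted p = 0.15 with counts summed per assembled gene). In hypergravity i2 made up 42.2% and 44.0% of the gene's counts, against 53.4% and 48.1% in control. A second assembled gene whose identifier shares the DN4030 prefix (TRINITY_DN4030_c1_g1), described as nitrate and peptide transporter NRT1/PTR FAMILY 8.1-like, had 2 of its 3 transcripts called lower, with log2 fold changes of -0.97 and -0.90. Whether reads are shared between them was not tested.

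**Figure D2:**
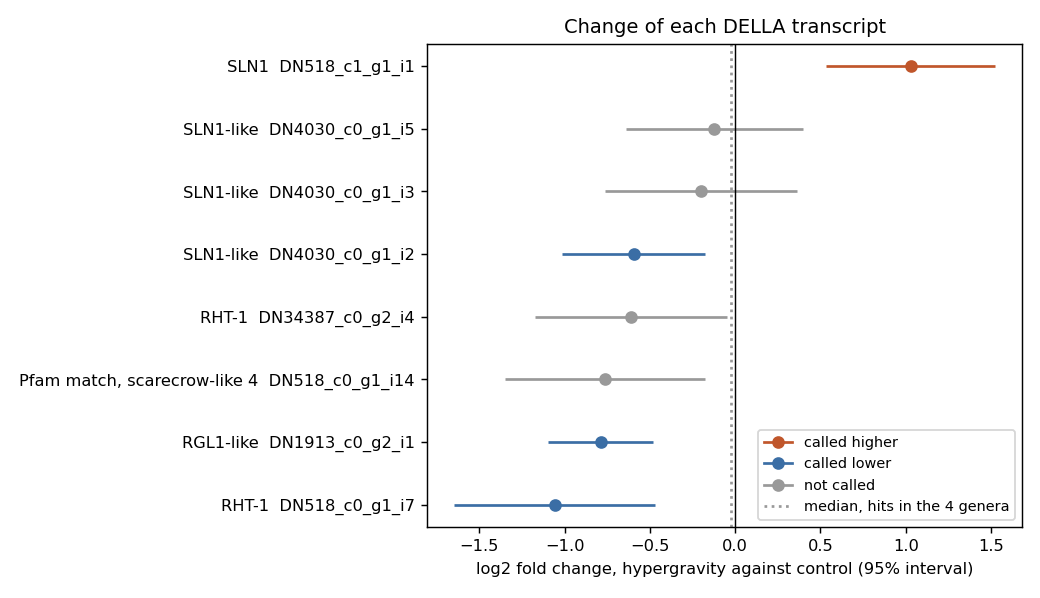
Log2 fold change of hypergravity against control (x axis) for each DELLA transcript, with its 95% interval from limma; the dotted line is the median of all transcripts with hits in the same 4 genera. SLN1 lies at 1.03 with its interval above 0, and the 7 other transcripts lie between -1.06 and -0.12.

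The member found by its DELLA N-terminal domain (TRINITY_DN518_c0_g1_i14, 2027 bases) had 185 and 124 normalized counts in hypergravity, against 194 and 340.1 in control. Its groups did not overlap, by a narrow margin in library a, and it was not called (log2 fold change -0.76 ± 0.26, limma adjusted p = 0.0591). The value rests on single libraries: it was -1.05 without hypergravity a and -1.17 without control a, but -0.48 without hypergravity b and -0.36 without control b. The transcript was called in 3 of 10 alternative fits, among them fits that left 1 library in a group. It belonged to the same assembled gene as the longer RHT-1 transcript. That gene held 6 isoforms, and their best hits differed: 1 was RHT-1, 4 were scarecrow-like protein 4 and 1, isoform i12, was the protein kinase PINOID-like although its Pfam domain was GRAS. By UniProt hit, i12 went with the members i7 and i14, since it shared its hit with a DELLA member, and i2, i3 and i9 carried another.

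These 3 isoforms, i7, i12 and i14, summed to 583 and 418 normalized counts in hypergravity, against 739 and 1165 in control. The 3 with the other hit summed to 659 and 623 in hypergravity, against 668 and 942 in control. Isoforms i7, i12 and i14 thus made up 46.9% and 40.2% of the gene's counts in hypergravity and 52.5% and 55.3% in control, without overlap. Among them i7 and i12 fell, i12 to 219 and 186 in hypergravity against 315 and 456 in control (log2 fold change -0.90 ± 0.18, limma adjusted p = 0.00505). Of the others i9 fell (-0.56 ± 0.19, adjusted p = 0.0488), i2 was not called (-0.38 ± 0.25), and i3 had nearly the same level in all libraries, at 305.5 and 305.8 in hypergravity and 289.9 and 343.8 in control. With counts summed over all 6 isoforms, the gene was called lower (-0.60 ± 0.17, limma adjusted p = 0.0307). The gene joins RHT-1, scarecrow-like and PINOID-like hits. How reads were divided between its isoforms, or counted in several of them, cannot be checked from the deposited values. These sums and shares may therefore count a read more than once.

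**Figure D3:**
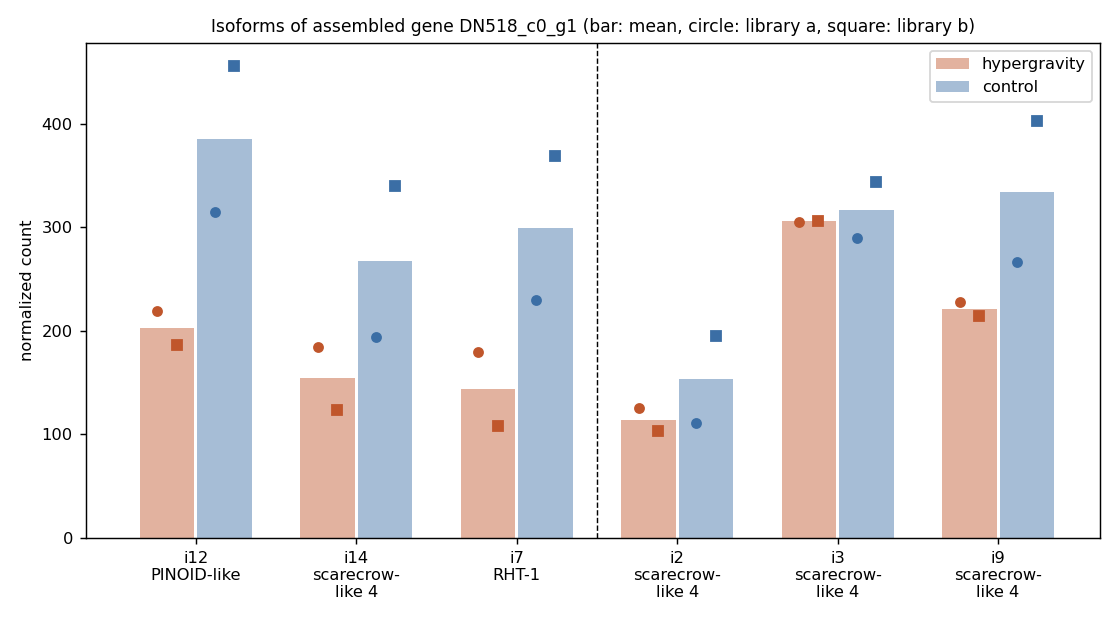
Normalized count (y axis, from 0) of the 6 isoforms of assembled gene TRINITY_DN518_c0_g1; bars are group means, circles library a and squares library b. Left of the dashed line are the 3 isoforms with a UniProt hit shared with a DELLA member, where both hypergravity libraries lie below both control libraries in each; right of it are the 3 with another hit, where i3 shows 305.5 and 305.8 in hypergravity against 289.9 and 343.8 in control.

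Per kilobase of transcript, the shorter RHT-1 transcript stood first in both groups, at 352 ± 104 in hypergravity and 547 ± 211 in control (normalized counts per kilobase, mean ± SD, n = 2 each). The RGL1-like transcript came second, at 215 ± 21.4 in hypergravity and 374 ± 71.1 in control. The longer RHT-1 transcript followed, at 138 ± 48.3 in hypergravity and 287 ± 94.5 in control. Neighbours among these 3 lay within their summed SDs in control and beyond them in hypergravity. Next came SLN1-like i2, at 113 ± 15.2 in hypergravity and 171 ± 0.30 in control, within the spread of the longer RHT-1 transcript in hypergravity. SLN1 was sixth in hypergravity, at 92.2 ± 13.5, where the 4 lowest members, between 76.0 and 95.7, did not differ beyond their spread. It was last in control, at 44.8 ± 6.69, below every other member by more than the summed SDs. Among all 91482 transcripts, the members' mean levels per kilobase lay between the 28.3th and the 82.2th percentile.

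**Figure D4:**
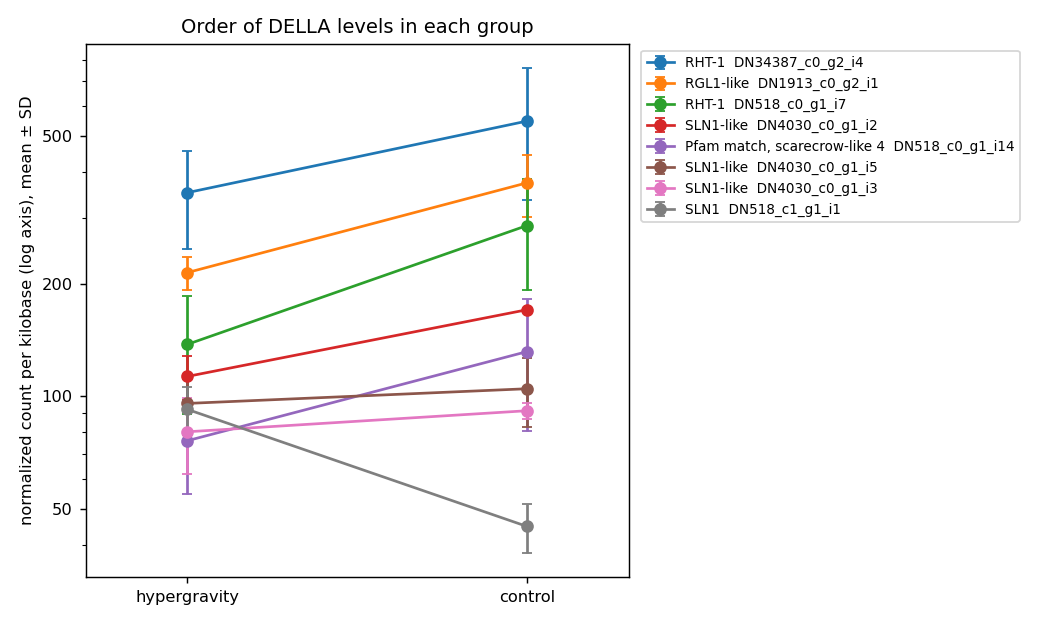
Normalized counts per kilobase (log axis, mean ± SD, n = 2 libraries) of each DELLA transcript in hypergravity and control. SLN1 is the only line that is higher in hypergravity (92.2 in hypergravity against 44.8 in control), and it stands sixth in hypergravity and last in control.

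Over all 8 transcripts the DELLA counts summed to 1717 and 1293 normalized counts in hypergravity, against 1939 and 2815 in control, which is 35.3 and 26.2 CPM in hypergravity and 39.8 and 56.2 in control. The groups did not overlap, but hypergravity a stood closer to control a than the control libraries stood to each other. The log2 ratio of the sums was -0.65, and it lay at -0.44 without hypergravity b and at -0.38 without control b. SLN1 made up 6.86% and 7.40% of the sum in hypergravity, against 2.39% and 2.04% in control. The log2 ratio of SLN1 to each of the 7 other members was higher in both hypergravity libraries than in both control libraries, by 1.17 to 2.11. SLN1 is the member that rose and the 7 others had log2 fold changes below 0, so a higher mean ratio follows from those values. All 7 ratios share SLN1 and are not separate results. For each ratio the test of 2 against 2 libraries gives p = 0.333 (exact permutation test, two-sided, 0.333 also after Benjamini-Hochberg adjustment over the 7), which is the smallest p this design allows.

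The libraries of a group differed in the same way for every member. All 8 DELLA transcripts were higher in control b than in control a, and all 8 were higher in hypergravity a than in hypergravity b. Both held for 34.7% of transcripts with hits in the 4 genera. The median difference over the members was 0.39 on the log2 scale between the hypergravity libraries (a minus b) and 0.41 between the control libraries (b minus a), against 0.01 and 0.02 over transcripts with hits in the 4 genera. The largest, 0.81 between the control libraries, belonged to the shorter RHT-1 transcript and exceeds its difference between groups. What sets these libraries apart was not tested.

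By a nearest-profile search over the 4 libraries, the transcripts most like the summed DELLA counts were an uncharacterized protein (TRINITY_DN2662_c0_g2_i16, distance 0.014), a second uncharacterized protein (TRINITY_DN79234_c0_g1_i2, 0.030), F-box protein PP2-A13-like (TRINITY_DN24982_c0_g1_i2, 0.031), NAC domain-containing protein 92-like (TRINITY_DN5033_c0_g1_i6, 0.035) and a serine/threonine-protein kinase dst1 (TRINITY_DN11325_c0_g1_i8, 0.041). Distance is Euclidean over 4 centred log2 values. With 4 libraries such likeness is common, and 1002 of 24903 assembled genes had a transcript within 0.25. The NAC transcript, for example, had 1112 and 855 normalized counts in hypergravity and 1262 and 1799 in control.

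The rest of the gibberellin pathway and related families were read from 8 lists of protein names with hits in the same 4 genera. The lists held 253 transcripts in all, called pathway transcripts below. Of these, 101 were other GRAS proteins and 83 were of families that bind DELLA proteins or act below them. The GASA list had 0 tested. Of the 253 transcripts 61 rose and 45 fell, with a median log2 fold change of 0.06. Over all transcripts of those genera, 13.2% were called higher and 13% lower. With counts summed per assembled gene, 26 of 134 genes of these lists were called higher and 27 lower. Over all 47167 assembled genes, 6726 were called higher and 5799 lower. At the start of the chain, the receptor GID1 did not pass the test. Its 2 transcripts, isoforms of 1 assembled gene, had 2953 and 2431 (TRINITY_DN3451_c0_g1_i1) and 2867 and 2346 (TRINITY_DN3451_c0_g1_i4) normalized counts in hypergravity, against 2240 and 2699, and 2066 and 2750, in control. Both log2 fold changes were 0.12, with limma adjusted p of 0.496 and 0.572, and the groups overlapped.

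The F-box protein GID2, which takes DELLA proteins to the proteasome, was lower. Of 7 GID2-like transcripts 5 fell and 0 rose, with a list median of -1.75. The 5 are isoforms of 1 assembled gene, so they are not 5 separate results. Isoform TRINITY_DN19848_c0_g1_i2 had 179 and 124 normalized counts in hypergravity, against 477 and 669 in control. Its groups stood well apart, and it fell by 1.92 on the log2 scale (-1.92 ± 0.20, limma adjusted p = 0.000118). In 10 alternative fits 5 or 6 GID2-like transcripts were called lower and the median lay between -2.13 and -1.30. In the 5 that fell, hypergravity a lay above hypergravity b and control b above control a, as for the DELLA transcripts, and the part of this in the result was not tested. SPINDLY, an enzyme that puts sugars on DELLA and other proteins, was not called in either of its 2 transcripts, with log2 fold changes of 0.00 ± 0.09 and -0.22 ± 0.11.

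Of 44 transcripts of gibberellin synthesis 13 (29.5%) were called higher and 6 (13.6%) lower (median 0.39). Over all transcripts of the same 4 genera 13.2% were called higher and 13% lower, so the share that fell is near the background. Without hypergravity b 6 were called higher. Ent-kaurene synthase, which makes the tetracyclic precursor, rose in 8 of 22 transcripts and fell in 0, the clearest being TRINITY_DN769_c1_g1_i5, with 190 and 188 normalized counts in hypergravity and 86.8 and 68.6 in control (log2 fold change 1.28 ± 0.19, limma adjusted p = 0.00081). Ent-kaurene oxidase, the next enzyme, rose in 2 of 4, among them TRINITY_DN3203_c1_g1_i8 at 1725 and 1716 in hypergravity and 995 and 1173 in control (0.67 ± 0.10, adjusted p = 0.00109). The 2 are isoforms of the same assembled gene. Ent-copalyl diphosphate synthase, the first committed enzyme, went both ways, with 3 of 10 higher and 4 lower. Its TRINITY_DN9967_c0_g2_i2 rose (0.67 ± 0.11, limma adjusted p = 0.00147) and its TRINITY_DN9967_c0_g1_i12 fell (-1.30 ± 0.20, limma adjusted p = 0.00114). Cereals also use relatives of these cyclases for defence diterpenoids, and the names do not separate the roles. The last steps had 1 transcript each: gibberellin 20 oxidase 1-D fell (TRINITY_DN2957_c0_g1_i2, -0.83 ± 0.27, adjusted p = 0.0471) at only 51.1 and 36.0 normalized counts in hypergravity and 64.1 and 93.0 in control. Gibberellin 3-beta-dioxygenase, which forms the active hormone, had 103 and 72.1 in hypergravity and 46.3 and 61.1 in control (TRINITY_DN27940_c0_g1_i2), and was not called (0.69 ± 0.25, adjusted p = 0.0733). Both low transcripts were picked for their role in the chain after their values had been seen.

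Gibberellin 2-beta-dioxygenase, which inactivates the hormone, rose in 5 of 14 transcripts and fell in 0, with a median of 0.22 (0.071 without control a, 0.36 without control b). These 5 lie in 2 assembled genes. Over all transcripts of the same 4 genera 13.2% were called higher and 13% lower. The transcript TRINITY_DN6499_c0_g1_i5 had 1092 and 947 normalized counts in hypergravity, against 449 and 593 in control, and rose by 0.98 ± 0.14 (limma adjusted p = 0.000722). A further transcript, gibberellin 2-beta-dioxygenase 8-like (TRINITY_DN7497_c0_g1_i6), rose by 0.30 ± 0.09 (adjusted p = 0.0404), at 928 and 925 in hypergravity and 759 and 745 in control. The count of higher transcripts was 3 without hypergravity a and lay between 2 and 6 in 10 alternative fits. No transcript of the GASA family of gibberellin-regulated proteins was among those tested, and the table held 1 such row, with a hit in another genus.

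**Figure D5:**
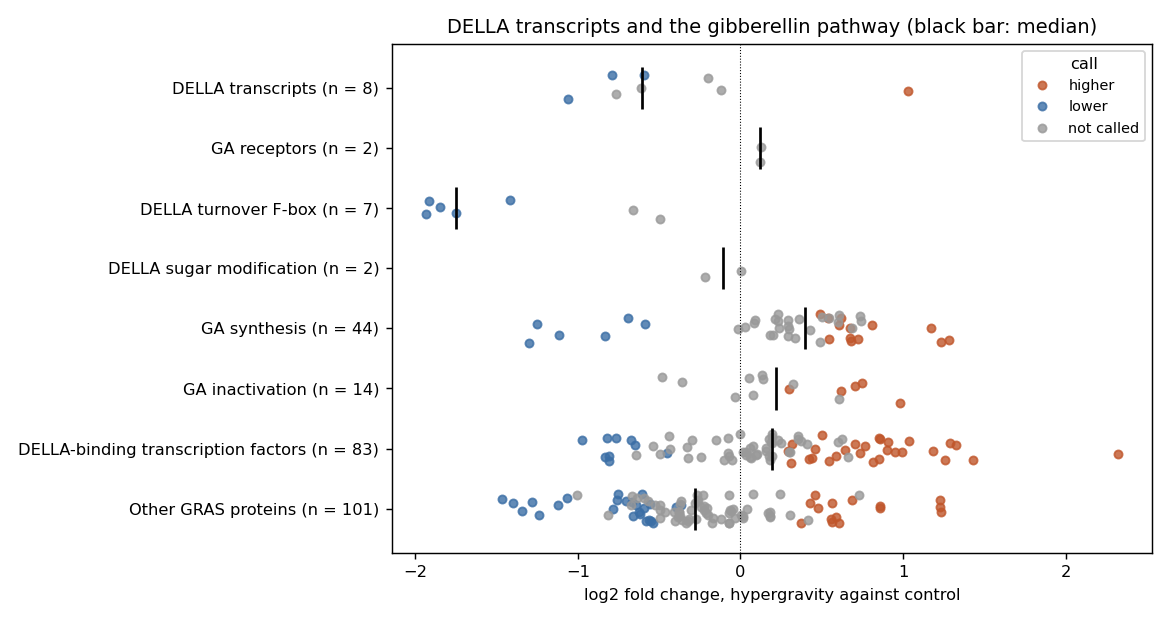
Log2 fold change of hypergravity against control (x axis) of the DELLA transcripts and of each pathway list; each point is a transcript, coloured by its call, and black bars are medians. The DELLA median lies at -0.60 and the DELLA turnover F-box (GID2-like) median at -1.75, while gibberellin synthesis lies at 0.39 and inactivation at 0.22.

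Families whose members bind DELLA proteins or act below them, as known mostly from Arabidopsis and rice, split by family. Of 83 such transcripts 28 rose and 9 fell (3 fell without control b and 4 without hypergravity b), and 21 of the 28 were TIFY proteins, the jasmonate-signalling repressors that bind DELLA proteins in Arabidopsis. No TIFY transcript of 35 fell, and the median was 0.71. All 6 TIFY 10c-like transcripts rose, and they are isoforms of the same assembled gene. Of 9 TIFY 6b-like transcripts 7 rose, most of them isoforms of another assembled gene. These are therefore not separate results. Of the 83 transcripts 33.7% rose and 10.8% fell, beside 13.2% and 13% over all transcripts of the same 4 genera. TIFY 10c-like (TRINITY_DN17971_c0_g1_i13) had 1652 and 1507 normalized counts in hypergravity and 613 and 643.5 in control (1.33 ± 0.10, limma adjusted p = 1.29e-05). TIFY 9-like (TRINITY_DN6862_c0_g1_i2) changed most, at 144 and 103 in hypergravity and 23.7 and 23.5 in control (2.32 ± 0.24). TIFY 6b-like (TRINITY_DN1533_c0_g1_i6) and TIFY 11e-like (TRINITY_DN8319_c0_g1_i2) rose by 0.91 ± 0.09 and 1.43 ± 0.17.

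Without the TIFY proteins 7 of 48 transcripts rose and 9 fell, with a median of 0.03. The share that rose is near the 13.2% over all transcripts of those genera. The PIF factors, light-regulated growth promoters that DELLA proteins bind in Arabidopsis, fell in 5 of 11 transcripts and rose in 0, with a median of -0.44. These families were set apart after their values had been seen. BZR1 homologs, the brassinosteroid-response factors, rose in 3 of 6 and fell in 0. GAMYB factors, first known from gibberellin-treated barley aleurone, fell in 2 of 9 and rose in 0, and the 2 are isoforms of the same assembled gene. Indeterminate-domain zinc-finger proteins, which carry DELLA proteins to promoters in Arabidopsis, rose in 4 of 22 and fell in 2. These counts are too small to read apart from the 13.2% higher and 13% lower of the background. The 4 that rose are isoforms of the same assembled gene. Among the PIF transcripts that fell and the BZR1 transcripts that rose, some also share an assembled gene.

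Among the 101 transcripts of other GRAS proteins 25 (24.8%) were called lower and 15 (14.9%) higher, and the median was -0.28. Over all transcripts of the same 4 genera 13% were called lower and 13.2% higher, so the share that rose is near the background. Without control b 15 were called lower. The chitin-inducible gibberellin-responsive protein 1, named for its induction in rice, had 6426 and 7408 normalized counts in hypergravity and 2946 and 2921 in control (TRINITY_DN292_c0_g1_i3), and rose by 1.23 ± 0.10 (limma adjusted p = 1.78e-05). Its level was far above that of any DELLA transcript, with 2545 against 352 normalized counts per kilobase for the shorter RHT-1 transcript in hypergravity. Scarecrow-like protein 21 rose in TRINITY_DN27136_c0_g1_i1 (0.86 ± 0.11, limma adjusted p = 0.000357) and TRINITY_DN13480_c0_g2_i1 (0.86 ± 0.12), but over its 11 transcripts 3 rose and 5 fell, with a median of -0.27. Of those that fell, TRINITY_DN20835_c0_g1_i5 had 576 and 572.5 normalized counts in hypergravity and 916 and 901 in control (-0.66 ± 0.10, limma adjusted p = 0.000817). Nodulation-signaling pathway 2 protein-like (TRINITY_DN15111_c0_g1_i1), a GRAS protein of strigolactone and symbiosis signalling in legumes and rice, fell to 373 and 318 in hypergravity against 701 and 1003 in control (-1.28 ± 0.16, limma adjusted p = 0.000363). The other transcript of that name, TRINITY_DN25465_c0_g1_i2, rose, with 142 and 131 in hypergravity and 99.6 and 81.7 in control (0.59 ± 0.19, limma adjusted p = 0.045). It and the falling scarecrow-like 21 transcript were named after their values had been seen. Scarecrow-like 3, which acts against DELLA proteins in Arabidopsis roots, fell in 4 of 9 transcripts and rose in 1; it was singled out after its values had been seen.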

How the data were processed

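Stranded, paired-end mRNA libraries were analysed from 1 deposited table of assembled transcripts. RSEM is named in the submitters' processing notes, with no version; the sources used here name neither assembler nor aligner. The deposited signal columns, headed FPKM per the file headers, hold 2 kinds of value. In 91482 rows the signal is the sum over a group's 2 libraries of counts divided by size factors: all (100%) split into exactly 1 pair of whole counts (tolerance 1e-09; factors 0.959 and 0.971 in hypergravity, 1.01 and 1.06 in control, equal to recomputed median-of-ratios factors). The other 55815 rows have 1 FPKM value per group and were not tested. No recovered count was below 9.

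Groups were compared by limma 3.58.1 (R 4.3.3) on log2(normalized count + 1), eBayes with trend, 2 residual and 7.91 prior degrees of freedom, Benjamini-Hochberg over 91482 transcripts. The procedure was tested on simulated data with a fixed spread and no difference shared between libraries of a group. That test therefore does not cover the differences between libraries described above. Intervals are 95% and unadjusted. Isoforms and subgenome copies share reads, so a change can include reads moved between copies. Some isoforms of an assembled gene had nearly equal values. In hypergravity a, isoforms i2, i3 and i9 of TRINITY_DN292_c0_g1 had 6468, 6426 and 6680 normalized counts. Sums over transcripts, isoform shares, CPM and library totals may therefore count a read more than once, which was not tested.

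Members and lists were chosen with earlier results of these data known. All members were named, plus up to 4 called transcripts per list with the lowest adjusted p (1 per assembled gene) and the 5 nearest profiles with a mean of at least 50. Alternatives were pseudocounts, scalings, a filter, no trend, sums per assembled gene and each library left out.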

Additional observations from a re-analysis of the deposited data

Results flagged for a closer look

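Outside the tested rows, 2 further rows named a DELLA protein, both with hits in Panicum hallii and both with 1 deposited FPKM value per group. DELLA protein DWARF8 (TRINITY_DN34387_c0_g1_i1, 588 bases), named for the maize DELLA gene, was listed at 8.25 FPKM in hypergravity and at 0 in control. DELLA protein RGL1-like (TRINITY_DN28791_c0_g1_i1, 1228 bases) was listed at 2.58 FPKM in hypergravity and at 0 in control. They are given because a signal appeared above the control value in data that the comparisons did not use. Such rows are common: of the 55815 rows of this kind, 29.7% were listed at 0 in control and above 0 in hypergravity, and 2.90% the other way round. With 1 value per group neither difference was tested, and the depth behind these values is unknown. The DWARF8 row belongs to the same Trinity component as the shorter RHT-1 transcript.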

How the results depend on the processing

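No paired analysis was possible because the recovered libraries carry no replicate number. SLN1 and the RGL1-like transcript kept their direction and their call in all 10 alternative fits. The count of DELLA transcripts called lower was 3, the cause of its changes was not tested, and it ranged from 1 to 5 when 1 library was left out (1 without hypergravity b, 2 without control b). Of 79 alternative values of single DELLA transcripts, 66 kept direction and call, 5 lost the call, 5 gained it and 3 turned in sign, all 3 of uncalled SLN1-like isoforms: TRINITY_DN4030_c0_g1_i3 ranged from -0.43 to 0.030 with 1 library left out and was above 0 without hypergravity b, and TRINITY_DN4030_c0_g1_i5 ranged from -0.34 to 0.093, at 0.039 without hypergravity b and 0.093 without control b. With 1 library left out the lone library is assumed to vary like the other group, and the fit without control a took an infinite prior. The log2 ratio of the summed DELLA counts lay between -0.92 and -0.38 with 1 library left out, and at -0.63 over the 7 transcripts matched by description and -0.56 without the transcript with the largest counts, both chosen after seeing the data.

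All transcripts called lower numbered 6622 without the mean-variance trend and 6983 to 10804 with 1 library left out. Summed per assembled gene, 6726 of 47167 were called higher and 5799 lower, and 26 of 134 pathway genes were higher and 27 lower. Fewer units were tested than with transcripts, and what else moved these counts was not tested. Pathway transcripts called lower numbered 28 to 52 with 1 library left out. Other scalings, pseudocounts and the filter kept all these counts within 1.5 times. The lowest members rest on 35 to 113 counts per hypergravity library. For SLN1-like i3 and i5 the difference between the hypergravity libraries, 0.46 and 0.32 on the log2 scale, exceeded that between the groups.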
